A study of Camponotus floridanus with 48 samples.

Results

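The 100 most abundant protein-coding transcripts of terminal-stage larvae of Camponotus floridanus, the Florida carpenter ant, took between 29.9% and 47.7% of the reads of a larva's library, with a median of 38.9%. They were chosen from 23058 coding transcripts longer than 600 and shorter than 15000 bases, out of 26314 transcripts of all kinds, as those of highest mean value over 48 larvae in the authors' deposited normalized table. They belong to 94 genes, 6 of which have 2 transcripts among them. That they are abundant is therefore given by the choice, and their levels are described without a test. The relation with larval length was not used to choose them and was tested. For transcripts that entered through a few very high larvae, those same larvae also weigh on the slope.

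Each library came from the polyA RNA of the whole body of 1 female terminal larva, and all 48 larvae came from 1 colony, colony 30. No treatment or genotype is given in the labels, so all belong to 1 group, along which the measured length runs from 4648.07 to 7598.06 µm. The study asked what goes with worker size, and for these animals the adult size and the age within the stage are not recorded in the labels. For description the larvae are also given as 3 groups of 16, the shortest (up to 5376.84 µm), those of intermediate length (5395.82 to 6613.4 µm) and the longest (from 6689.42 µm). The p-values below measure the spread between larvae of 1 colony.

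In an insect larva at the end of growth, a few tissues account for much of the messenger RNA. The fat body makes storage proteins that are released into the haemolymph and used up during metamorphosis, the epidermis makes cuticle proteins, the body wall carries muscle, and in larvae that spin a cocoon the labial glands make silk. Transcripts of ribosomal proteins and of other proteins that all growing cells need are also abundant. The annotation used here pairs every one of the 100 transcripts with a locus number and gives no product name, so none of them is assigned below to any of these tissues or roles. For the same reason the marker genes of a tissue could not be looked up. In libraries of whole larvae, more cells of a type and more RNA per cell cannot be told apart.

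The libraries held up to 63171625 reads assigned to transcripts. The shallowest were those of No. 42 (8928672 reads) and No. 43 (6608775), which are long larvae, and the remaining 46 held 29813793 or more. On the first principal component of 10419 genes, from which the genes of the 100 transcripts were left out, 15 libraries had scores from 28.6 to 119 and the other 33 had scores from -61.4 to 5.59. This component held 43% of the variance. The 15 libraries came from 2 of the shortest larvae, 8 of intermediate length and 5 of the longest, and the labels name no batch. Because this set was defined from the data, its values are set beside those of the 33 without a test.

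The choice was set beside other rankings. Of the 100 transcripts, 87 were also among the first 100 when transcripts of every kind and length were ranked. In a given larva, between 72 (No. 32) and 91 of them were among that larva's own first 100 coding transcripts, with a median of 84.5. In all, 45 of the 100 were in the own first 100 of every larva, 10 were there in fewer than 24 larvae, and LOC105248920 was there in 7. Per length, in TPM, a length-corrected relative abundance, 68 of the 100 were among the first 100. The last transcripts inside the limit, at ranks 99 and 100, were XM_011254710.3 of LOC105249331 and LOC105258733, with mean normalized values of 41296 and 40236. The first outside it, LOC105252585 and LOC105259586, had 39654 and 38174, so the limit falls within a gradual decline.

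Reads were concentrated in a handful of transcripts. By mean share, the first 8 transcripts held at least 50% of the reads of all 100. The first 10 took 11.3% (No. 4) to 31.4% (No. 43) of a library, with a median of 21.5%, and ranks 11 to 100 took 14.3% to 27.4%, with a median of 16.4%. For comparison, the next 900 coding transcripts together took 19.4% to 26.1%, with a median of 22.6%. Summed as TPM, which divides by transcript length, the median share of the 100 was 34.2%.

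**Figure D1:**
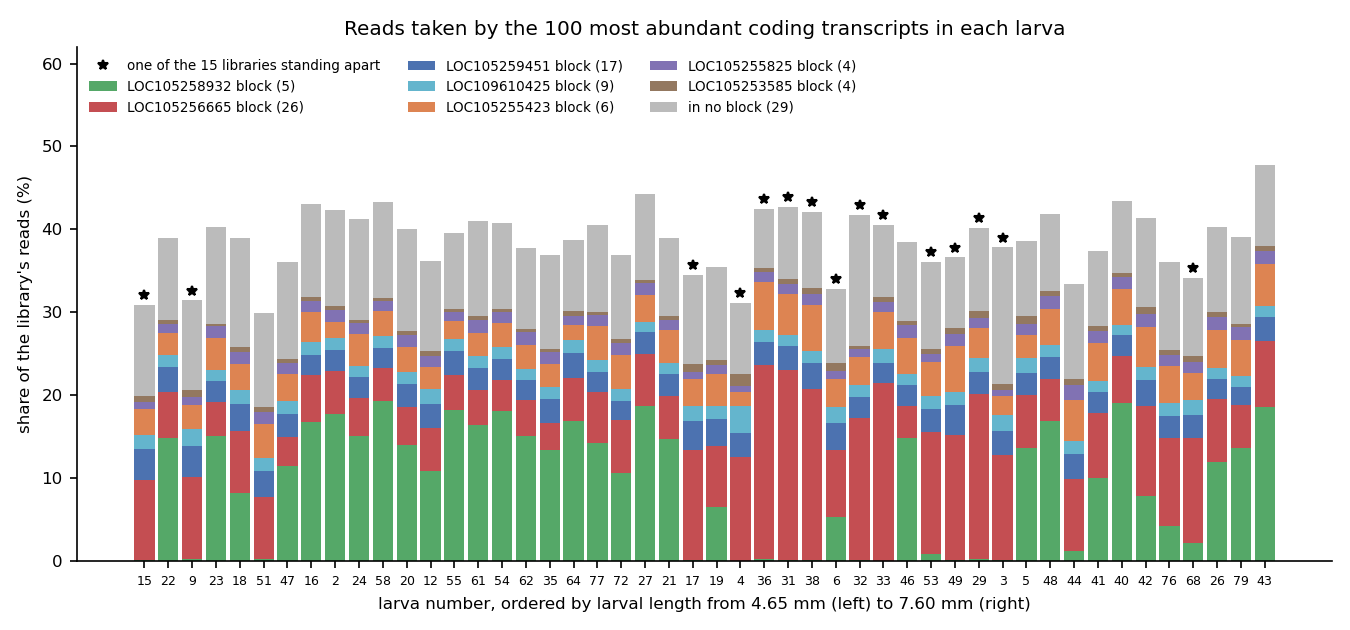
Share of each library's estimated reads (%) taken by the 100 transcripts, 1 bar per larva, ordered by larval length from left to right. Colours mark 7 blocks of transcripts that varied together, named by their most abundant member with the number of members in brackets, and stars mark the 15 libraries that stand apart on the first principal component. The green segment spans 0.0023% to 19.3% of a library and is nearly missing under most of the stars, while the total height stays between 29.9% and 47.7%.

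The total share showed little relation with length. Its median was 39.8% in the 16 shortest larvae, 38.8% in those of intermediate length and 38.5% in the 16 longest, and the ranges of 29.9% to 43.3%, 31.1% to 44.3% and 33.4% to 47.7% overlapped. It also overlapped between the 15 libraries (30.9% to 42.7%, median 36.6%) and the 33 (29.9% to 47.7%, median 39.03%). The parts of the sum did not behave alike. The first 10 had a median of 14.3% in the 15 and 23.9% in the 33. Ranks 11 to 100 had the opposite order, with 17.6% to 27.4% in the 15, median 22.0%, and 14.3% to 19.5% in the 33, median 15.7%. Shares of a library sum to 100%, so a large share of some transcripts lowers that of the others.

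Per length, the most abundant transcripts were LOC105250772 with a mean of 30241 TPM, LOC105258901 with 26974 TPM, LOC105258932 with 21792 TPM and LOC105257943 with 18733 TPM. By reads, the transcript in first place differed between larvae. LOC105258932 was first in 23 larvae, all of them among the 33, and LOC105250772 in 15 larvae, 10 of the 33 and 5 of the 15. LOC105256665 was first in 8 of the 15 libraries, and LOC105248920 in the remaining 2, those of larvae No. 3 and No. 32.

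The level of a transcript across larvae is given below in CPM, read counts relative to a library size scaled by TMM factors. LOC105250772, at rank 1, had at least 1.73% of the reads of every library and was in the first 100 of all 48 larvae. Its lowest level was 18380 CPM in No. 53, its median 46629 CPM and its highest 80158 CPM in No. 18. LOC105258932, at rank 2, had a median of 43279 CPM and a highest level of 102604 CPM in No. 43, but 9.08 CPM in No. 33. It was among the first 100 in 36 of the 48 larvae. LOC105255423, at rank 4, ran from 7891 CPM in No. 64 through a median of 22814 CPM to 56162 CPM in No. 36.

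**Figure D2:**
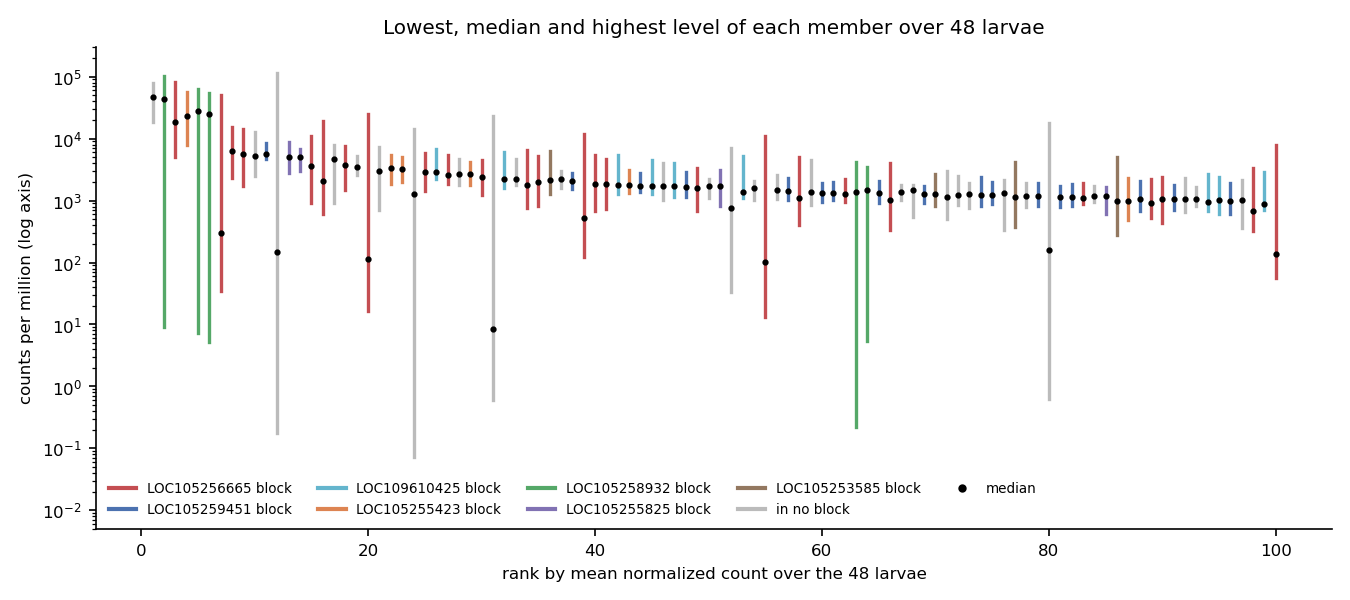
Level of each of the 100 transcripts in CPM on a log axis, by rank. Each line runs from the lowest to the highest of 48 larvae, the point is the median, and the colour gives the block. Most lines are short, while LOC105257943 at rank 7, LOC105248920 at rank 12 and LOC105250202 at rank 31 have medians of 298, 149 and 8.6 CPM far below their highest values.

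A transcript can enter a list of highest means through a few larvae, and several did. The coefficient of variation over the 48 larvae had a median of 0.321 among the 100 and 0.292 among the next 900 coding transcripts. It was above 1 for 11 of the 100, against 5.78% of the next 900, and under 0.2 for 19. These figures describe the list, since the mean that chose it rises with a few very high values.

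LOC105248920 had the highest coefficient of variation, 4.04. Its lowest level was 0.176 CPM in No. 23, where it had 10 reads, its median 149 CPM and its highest 112193 CPM in No. 32. It took 7.46% of the library of No. 32, and more than 1% of 4 libraries, all among the 15. The other three of these were No. 3, No. 53 and No. 68, with 88235, 14699 and 11662 CPM. In the 33 libraries its highest level was 2555 CPM. LOC105250901 had a coefficient of 2.72, with a median of 161 CPM and 17494 CPM in No. 3, the only larva in which it passed 1%. LOC105250202 had 2.22, with a median of 8.6 CPM and 23232 CPM in No. 53, and passed 1% in 5 of the 15 libraries and in 0 of the 33. In the 33 it ran from 0.602 to 64.1 CPM. LOC105254302 had 2.03 and ran from 16.3 to 24978 CPM.

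The steadiest of the 100 varied far less. LOC105252785 had a coefficient of 0.114 and ran from 1008 CPM in No. 2 through 1367 to 1755 CPM in No. 43. The coefficients of LOC105251205, LOC105254686 and LOC105253386 were 0.119, 0.138 and 0.143. The levels of LOC105251205 lay between 941 and 1723 CPM, and those of LOC105254686 between 1097 and 2258 CPM. LOC105253386 ran from 1552 to 2817 CPM. None of these 4 had a slope with length that passed the test, with adjusted p-values of 0.982, 0.806, 0.7 and 0.745 (edgeR). With library totals in place of TMM factors, LOC105253386 and LOC105251205 fell, with slopes of -0.109 and -0.094 log2 per mm (edgeR adjusted p = 0.0147 and 0.0194). Under that scaling 13.6% of all transcripts fell.

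Blocks of transcripts that varied together were sought by clustering on the Pearson correlation of log2 CPM, after each transcript's mean within the 15 and within the 33 libraries was subtracted. With the tree divided at r = 0.6, 71 of the 100 fell into 7 blocks of at least 4 members and 29 into none. Each block is named here by its most abundant member. Over all 4950 pairs the median r was 0.249, and 17.1% of pairs exceeded 0.6. All correlations are over 48 larvae that share 1 colony and the same scaling factors, and they are given as descriptions.

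**Figure D3:**
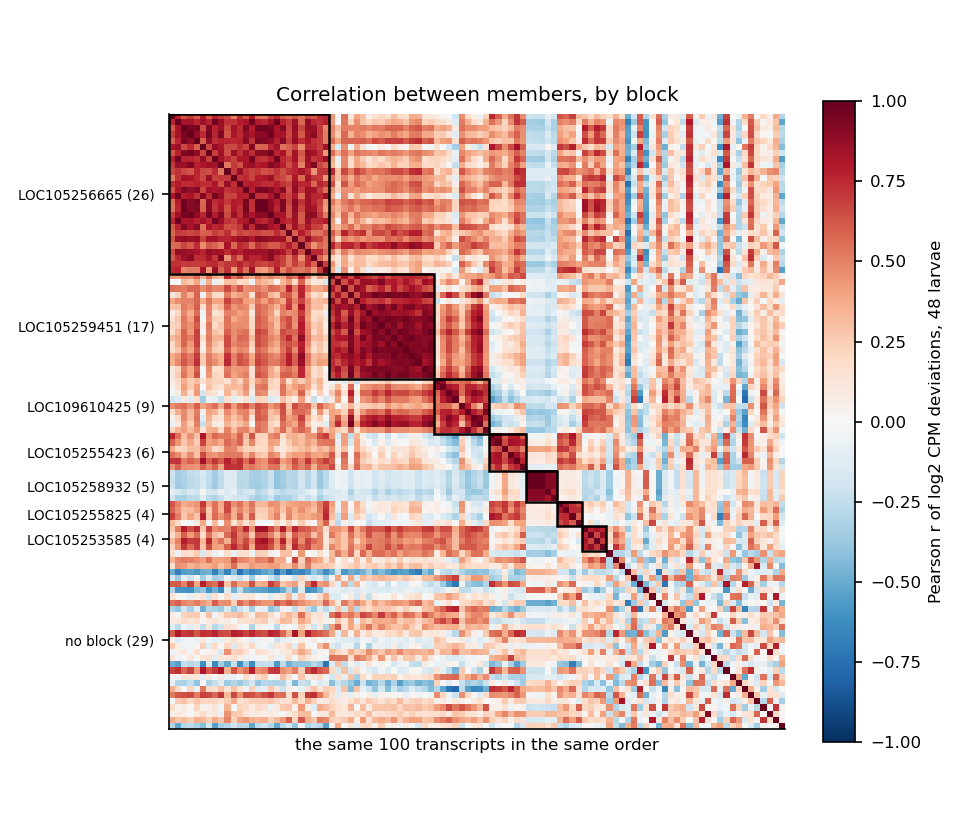
Pearson r between each pair of the 100 transcripts over 48 larvae, on deviations of log2 CPM from the mean of the 15 or of the 33 libraries, from -1 (blue) to 1 (red). Transcripts are ordered by block, black squares outline the 7 blocks, and the number of members is in brackets. The LOC105258932 block stands out by pale blue strips, with a median r of -0.153 to the other transcripts.

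The largest block had 26 members from 25 genes, led by LOC105256665, LOC105257943 and LOC105249081, with a median r of 0.755 (0.794 within the 33 libraries and 0.748 within the 15). Together its members took 3.24% (No. 35) to 23.4% (No. 36) of a library. In the 15 libraries the block took 8.08% to 23.4%, with a median of 14.6%, and in the 33 it took 3.24% to 10.8%, with a median of 5.21%. The libraries with the largest share were thus all among the 15, and the ranges overlapped between 8.08% and 10.8%. LOC105256665 had a level of 15355 to 82573 CPM in the 15, with a median of 49922, and 4984 to 32242 CPM in the 33, with a median of 13372. For LOC105257943 the sets lay further apart, with 1260 to 50736 CPM in the 15 and 34.7 to 2682 CPM in the 33, and medians of 15683 and 135 CPM. It took more than 1% of the library in 11 of the 15 and in 0 of the 33. Members such as LOC105257943 owe their high mean to the 15 libraries, so the difference between the sets is in part given by the choice. LOC105249081 had medians of 11707 and 4798 CPM, and its ranges of 8310 to 15162 and 2321 to 10641 CPM overlapped. LOC105254302, LOC105254301 and LOC105258733, further members, had their highest levels in the same larva, No. 36, at 24978, 11090 and 7924 CPM. When a line in length was also subtracted, 14 of the 26 stayed in 1 cluster.

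The LOC105258932 block had 5 members, LOC105258932, LOC105258900, LOC105258901, LOC105251615 and LOC105251522, with a median r of 0.912. The last pair is named because it completes the block. The block took 0.0023% of the library in No. 33, a median of 11.1% and 19.3% in No. 58. In the 33 libraries its median was 14.7%, and in the 15 it was 0.0932% with a highest value of 5.28%. The 33 also held a low library, No. 51, at 0.233%, so the ranges overlapped. LOC105258900 ran from 7.18 CPM in No. 33 through 27896 to 62895 CPM in No. 43, and LOC105258901 from 5.2 through 24589 to 54298 CPM in the same larvae. The low levels of LOC105258932, LOC105258900 and LOC105258901 rested on at least 248, 196 and 142 estimated reads in every library. LOC105251615 went down to 0.22 CPM in No. 33, so its lowest values rest on few reads.

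The largest block took more reads than the LOC105258932 block in 20 of the 48 larvae. These were all of the 15 libraries and 5 of the 33, those of larvae No. 19, 42, 44, 51 and 76. By length they were 3 of the 16 shortest, 9 of the 16 of intermediate length and 8 of the 16 longest. In the other 28 larvae the LOC105258932 block was the larger.

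LOC105258900, LOC105258901 and LOC105258932 follow each other in the gene table. The correlation between neighbours among them was 0.999 within each set of libraries. LOC105258932 took 39.5% to 48.9% of the reads of the 3, LOC105258900 took 27.7% to 37.6% and LOC105258901 took 22.9% to 27.3%, while their sum ran from 0.0018% to 18.6% of a library. Their sequences were not compared here. If they share sequence, the estimate could divide reads between them, so the level of each alone is uncertain. In all, 10 pairs of the 100 transcripts came from genes at most 2 steps apart in the gene table. Their median r was 0.886, and 7 of them exceeded 0.6. LOC105254301 and LOC105254302 (r = 0.965) and LOC109610425 and LOC109610427 (r = 0.888) were of this kind, whereas LOC105250772 and its neighbour LOC105250771 had an r of 0.171.

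Neighbours in the table did not always share a block. LOC105250202 and LOC105250203 had an r of 0.567, and LOC105257777 and LOC105257780 an r of 0.453. Transcripts of 1 gene, of which the list holds 6 pairs, had a median r of 0.571, below that of neighbouring genes. The pair of LOC105249331 had an r of 0.937, with 56.3% to 64.0% of its reads in XM_011254709.3. The pair of LOC105259451 had an r of 0.218, with 75.1% to 95.6% in XM_011271401.3. In the pair of LOC105258140, XM_011269230.3 took 34.4% to 93.1% of the reads, with medians of 61.0% in the 15 libraries and 48.4% in the 33. Reads common to both transcripts of a gene are divided by estimation, so these splits are less certain than the sums.

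The second largest block had 17 members from 17 genes, led by LOC105259451, LOC105253386 and LOC105256877, with a median r of 0.868 (0.913 in the 33 and 0.788 in the 15). It was steady, taking 2.14% to 3.82% of a library with a median of 2.77%. Medians of the 16 shortest, intermediate and longest larvae were 2.78%, 2.81% and 2.67%. Its members were short, with a median of 888 bases against 1702 bases for all 100. LOC105259451, the longest at 2463 bases, ran from 4623 through 5703 to 8508 CPM, and LOC105256877 from 1376 through 1731 to 2763 CPM. All 17 stayed in 1 cluster under the 5 other ways of clustering, of which that without subtraction of set means joins 60 transcripts in its largest cluster.

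The other blocks were smaller. The LOC109610425 block had 9 members from 8 genes and took 1.24% to 3.19%, with its highest share in No. 4 and medians of 1.72% in the 15 libraries and 1.45% in the 33. Its 3 most abundant members were all highest in that larva, LOC109610425 at 6860 CPM, LOC109610427 at 6174 CPM and LOC105259326 at 5515 CPM, against medians of 2863, 2199 and 1797 CPM. The LOC105253585 block of 4 members, with LOC105251554 and XM_011268378.3 of LOC105257626, was also highest in No. 4, at 1.45% against a median of 0.558%, with medians of 0.730% in the 15 and 0.494% in the 33. The LOC105255423 block had 6 members, LOC105249291 and LOC105253571 among them, and took 1.73% to 5.80%. The LOC105255825 block had 4 members, LOC105252173 and LOC105252149 among them, and took 0.714% to 1.77%. Its median was 0.998% in the 15 libraries and 1.40% in the 33. Membership of 3 of these 4 blocks depended on the clustering. With the tree divided at r = 0.7, and with Spearman correlation, 4 of the 9 members of the LOC109610425 block stayed together. With a line in length subtracted, 3 of the 6 in the LOC105255423 block and 2 of the 4 in the LOC105255825 block did, while the 4 of the LOC105253585 block stayed in 1 cluster throughout. Such a cluster can also hold other transcripts, so this does not show that the block stayed separate. Dividing the tree at a lower r can only merge clusters, and without subtraction of set means larger clusters formed.

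The association of each transcript with length was tested over all 48 larvae, in a fit on all 19714 transcripts that passed a filter on low counts. All 100 passed this filter, as a list chosen by high level would. Of the 100, 41 rose and 3 fell with length (adjusted p under 0.05, Benjamini-Hochberg, from the quasi-likelihood test of edgeR). Among all tested transcripts 7.16% rose and 6.48% fell, and among the next 900 coding transcripts 19.2% rose and 8.44% fell. The next 900 are the nearer comparison in level. Slopes were positive for 80 of the 100, with a median of 0.12 log2 per mm, against 0.04 among the next 900 and -0.005 over all. Of the called transcripts 93.2% were rising, and with library totals in place of TMM factors 27 rose and 7 fell, which is 79.4% rising. Under that scaling 4.3% of all transcripts rose and 13.6% fell, with a median slope of -0.08.

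**Figure D4:**
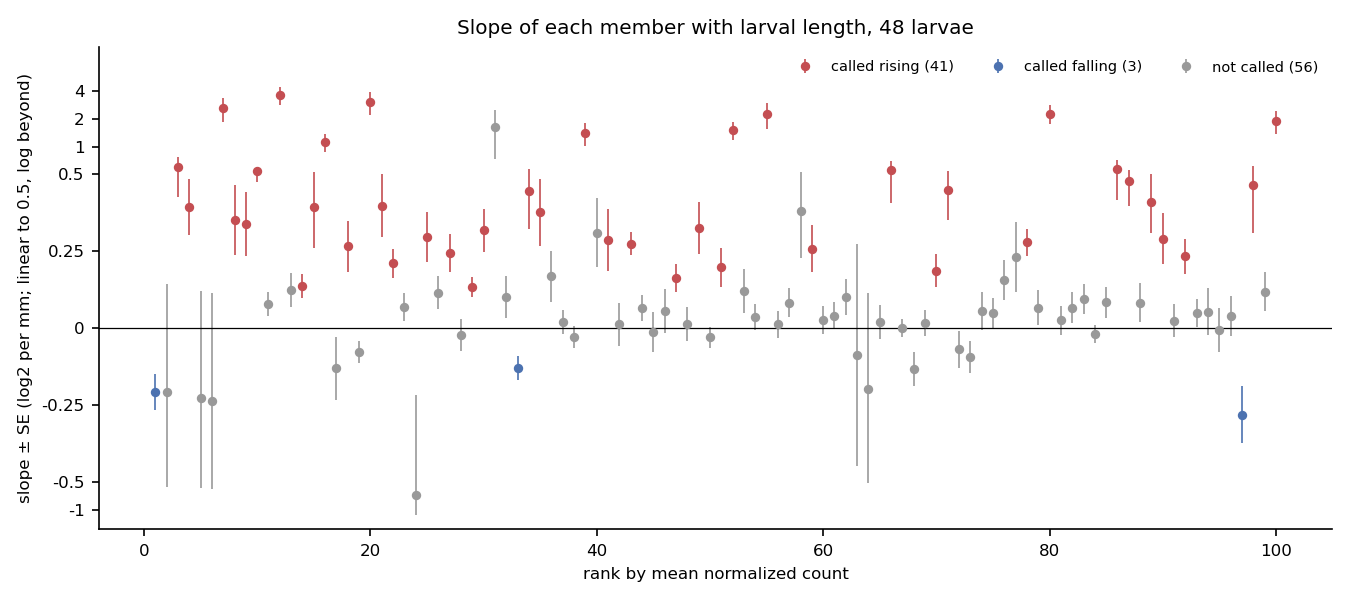
Slope of each of the 100 transcripts with larval length, in log2 per mm ± SE over 48 larvae, by rank. The vertical axis is linear between -0.5 and 0.5 and logarithmic beyond. Red points are the 41 transcripts called rising, blue the 3 called falling and grey the 56 not called, and 80 points lie above 0.

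Slopes of the rising transcripts ran from 0.13 to 3.66 log2 per mm, with a median of 0.39. They were under 0.5 for 28 transcripts and above 1 for 9. Rising transcripts were found at all ranks, 6 of the first 10, 19 of the next 40 and 16 of the last 50. Among the 56 that were not called the median SE was 0.055, and 37 of them had a slope within 0.1 of 0.

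The 6 rising transcripts of smallest p were LOC105249932, LOC105258477, LOC105254876, LOC105253215, LOC105258193 and LOC105258709, and 4 of them were in no block. LOC105249932 had 2754 to 6585 CPM in the 16 shortest larvae, with a median of 3687, and 5882 to 12755 CPM in the 16 longest, with a median of 9152. Its slope was 0.54 ± 0.07 log2 per mm (SE, n = 48, edgeR adjusted p = 1.55e-07), and its level exceeded the median of the shortest in all 16 of the longest. The 2 groups overlapped between 5882 and 6585 CPM. LOC105258477 had 1339 to 1717 CPM in the shortest larvae, median 1536, and 1607 to 3105 CPM in the longest, median 2168, with a slope of 0.28 ± 0.04 (adjusted p = 1.23e-06). LOC105258709 changed most of the 6, from 33.4 to 1000 CPM in the shortest, median 165, to 372 to 4207 CPM in the longest, median 1769. Its slope was 1.51 ± 0.33 (adjusted p = 0.000961), and it too had all 16 of the longest above the median of the shortest. The other three had slopes of 0.28, 0.48 and 0.45.

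These 6 kept their direction without the 15 libraries. Without them the slopes of LOC105249932, LOC105258477 and LOC105258709 were 0.64, 0.25 and 1.43 log2 per mm, and those of LOC105254876, LOC105253215 and LOC105258193 were 0.25, 0.44 and 0.37. All 6 passed the test in that fit, with adjusted p-values up to 0.000926 (edgeR). In the 15 alone their slopes were also positive, from 0.165 to 0.717. None of the 6 passed there (edgeR adjusted p from 0.411 to 0.842).

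Of the 3 that fell, LOC105250772 went from 39688 to 80158 CPM in the 16 shortest larvae, median 54668, to 18380 to 58165 CPM in the 16 longest, median 35758. Its slope was -0.21 ± 0.06 log2 per mm (adjusted p = 0.0122), 15 of the 16 longest lay below the median of the shortest, and the groups overlapped. LOC105255464 fell with a slope of -0.13 ± 0.04 (adjusted p = 0.0242), from a median of 2625 to 2083 CPM. LOC105256494 fell with a slope of -0.28 ± 0.09 (adjusted p = 0.0352), from 1308 to 871 CPM, and in both cases the level of all 16 of the longest was under that median of the shortest. LOC105256494 was no longer called when any of 7 larvae was left out (No. 16, 18, 20, 23, 24, 47 or 68), with adjusted p-values up to 0.0665.

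Transcripts called with length were spread unevenly over the blocks. The blocks were formed with any trend in length left in, so a shared trend can itself join transcripts. The counts per block are therefore descriptions, and members that vary together are not independent of each other. In the LOC105256665 block 22 of 26 members rose and 0 fell, in the LOC105255423 block 5 of 6 rose, and in the LOC105255825 and LOC105253585 blocks 2 of 4 rose each. In the LOC109610425 block 1 of 9 rose. In the 17-member LOC105259451 block 0 of 17 were called in either direction (edgeR, and 0 at an unadjusted p under 0.05), with a median slope of 0.04. DESeq2 and limma-voom also called 0 of them, with 2 and 1 at an unadjusted p under 0.05, while LOC105259451 rose when counts were summed over its gene (adjusted p = 0.0143). With library totals in place of TMM factors, 16 of the 26 rose and 1 of the 17 fell. Under that scaling 3 of 6 rose in the LOC105255423 block and 1 of 4 in the LOC105253585 block. In the LOC105255825 and LOC109610425 blocks 0 of 4 and 0 of 9 then rose. In the edgeR fit with TMM factors, the 5 members of the LOC105258932 block were not called (0 at an unadjusted p under 0.05, and 0 called by DESeq2 or limma-voom). Their slopes lay between -0.24 and -0.09, with standard errors between 0.31 and 0.36. Slopes of that size were not detectable at this spread, and they changed sign with membership of the 15 as a covariate. Of the 29 transcripts in no block, 9 rose and 3 fell.

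The LOC105256665 block took a larger share in the 15 libraries, as given above, and the size of its slopes depended on them. LOC105256665 had a median of 11118 CPM in the shortest larvae, 24367 CPM in those of intermediate length and 25579 CPM in the longest, with a slope of 0.60 ± 0.17 (adjusted p = 0.0135). Without the 15 libraries its slope was 0.39 (adjusted p = 0.00739). LOC105257943 had medians of 71.6, 937 and 999 CPM in the same order and a slope of 2.63 ± 0.77 (adjusted p = 0.0149). Without the 15 its slope was 1.22 (adjusted p = 0.000257). LOC105254302 had a slope of 3.03 ± 0.85 (adjusted p = 0.0108), and 1.09 without the 15 (adjusted p = 3.81e-05). LOC105258733 had 1.90 ± 0.54 (adjusted p = 0.0114), and 0.56 without the 15 (adjusted p = 2.57e-06). These transcripts thus passed the test both ways with slopes that differed by more than 1.5 times. The high levels in the 15 that raised the means of LOC105257943, LOC105254302 and LOC105258733 also enter their slopes on all larvae. In that fit, choice and test are not separate for these transcripts. LOC105249081 passed in the fit on all larvae (slope 0.35 ± 0.11, adjusted p = 0.0304) but not when larva No. 29 was left out (adjusted p = 0.0501), with library totals (0.062) or in the authors' deposited normalized table (0.0542). LOC105258141, at rank 9, had a slope of 0.34 ± 0.10 (adjusted p = 0.0201).

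**Figure D5:**
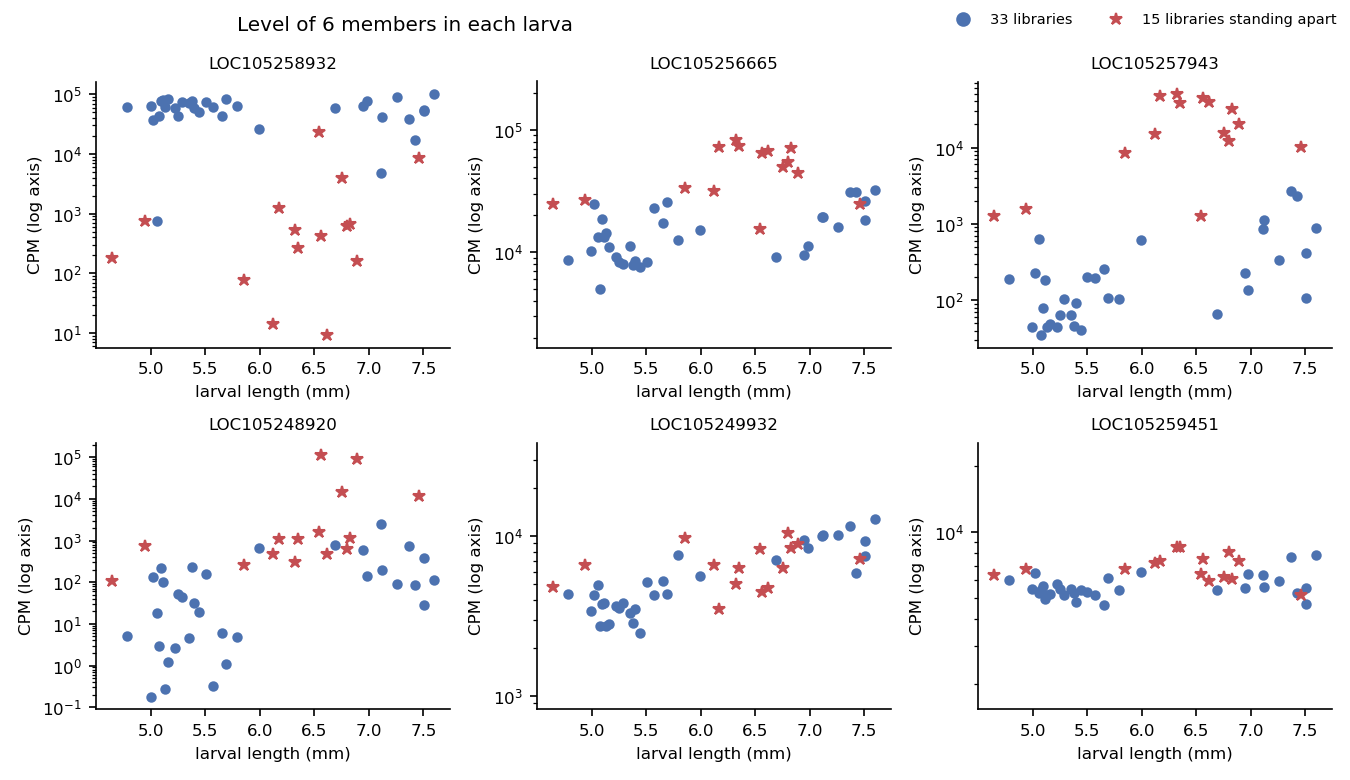
Level in CPM on a log axis against larval length in mm for 6 of the 100 transcripts, 1 point per larva. Red stars are the 15 libraries that stand apart and blue points the other 33. LOC105257943 lies at 1260 CPM or more in all stars, LOC105258932 drops to 9.08 CPM among them, and LOC105259451 stays between 4623 and 8508 CPM. LOC105249932 rises among the blue points, with a slope of 0.64 log2 per mm. Among the stars alone its slope was 0.165 and did not pass the test (edgeR adjusted p = 0.842).

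Over the whole list, 45 of the 100 rose and 6 fell without the 15 libraries, and 39 of the 41 rising and 3 of the 3 falling calls were kept. In that fit 7.4% of all transcripts rose and 8.76% fell. With membership of the 15 as a covariate, 45 rose and 3 fell, and all 41 rising calls were kept, while 7.3% of all transcripts rose and 7.92% fell. Within the 15 libraries alone, a fit chosen after seeing the data, 0 of the 100 were called (edgeR), 11 had an unadjusted p under 0.05 and 69 had a positive slope. Of all transcripts in that fit 0.00508% rose and 0.183% fell, so 0 of 100 is near the overall share. It rests on 15 larvae, of which 2 are short.

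LOC105255423, the most abundant member of its block, rose from a median of 17164 to 28984 CPM, with a slope of 0.39 ± 0.09 (adjusted p = 0.00201). LOC105249291, the longest of the 100 transcripts at 10612 bases, rose with a slope of 0.21 ± 0.05 (adjusted p = 0.00133). It did not pass with library totals (slope 0.135, edgeR adjusted p = 0.0704). LOC105253571 of the same block had 0.07 ± 0.05 (adjusted p = 0.391) when length alone was fitted to all larvae. It passed without the libraries that stand apart on the first principal component (slope 0.115, edgeR adjusted p = 0.00529). With membership of that set as a covariate it also passed (slope 0.116, edgeR adjusted p = 0.00318). LOC105252173 rose with a slope of 0.14 ± 0.04 (adjusted p = 0.0118) and lost its call without larvae No. 42 and No. 43 (slope 0.12, adjusted p = 0.0605). LOC105252149 rose with a slope of 0.20 ± 0.06 (adjusted p = 0.0237), which did not pass without larva No. 43 (adjusted p = 0.0656). LOC105251554 rose with a slope of 0.19 ± 0.05 (adjusted p = 0.0125), which did not pass without larvae No. 42 and No. 43 (adjusted p = 0.0604). With library totals and all larvae kept, LOC105252173, LOC105252149 and LOC105251554 did not pass either (edgeR adjusted p = 0.311, 0.178 and 0.13). LOC105252173 and LOC105252149 also failed without the 2 longest and 2 shortest larvae (edgeR adjusted p = 0.0923 and 0.132).

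The 4 transcripts of highest coefficient of variation had slopes above 1, and those of 3 passed the test. LOC105248920, LOC105250901 and LOC105250202 passed 1% of the library in 0 of the 16 shortest larvae. The high values that raised their means also enter their slopes, so choice and test are not separate for them. LOC105248920 had 0.176 to 738 CPM in the 16 shortest larvae, with a median of 31.6, and 28.2 to 88235 CPM in the 16 longest, with a median of 617. Its slope was 3.66 ± 0.80 log2 per mm (adjusted p = 0.00115), and 1.66 without the 15 libraries (adjusted p = 0.0178). Over fits that each left out 1 larva the slope ran from 3.06 to 4.22. LOC105250901 rose with a slope of 2.29 ± 0.51 (adjusted p = 0.00151), and 1.21 without the 15 (adjusted p = 0.043). LOC105250202 had a slope of 1.63 ± 0.89 that did not pass (adjusted p = 0.258), ran from 1.45 to 3.09 when 1 larva was left out, and was -0.01 without the 15. Its DESeq2 test did pass (adjusted p = 0.0242), as did the edgeR test without the 2 longest and 2 shortest larvae (slope 3.24, adjusted p = 0.0482).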

How the data were processed

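Per the labels' protocols, a directional kit was used on polyA RNA of each of 48 whole larvae, and paired reads were sequenced. Tools named by the submitters' processing notes are DESeq, DESeq2, Salmon, Trim Galore 0.6.7 and bcl2fastq 2.20. Index, strand setting and build: not given in the sources used here. For every larva, a salmon quantification gives expected counts (estimated reads) and TPM per transcript, per the file headers. The authors also deposited 1 table of normalized signal for all larvae together, with a scaling that no source used here states. This table chose the 100 transcripts, with 1 cell that is not a number taken as 0. Of its columns, 0 belong to other samples.

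Transcripts were matched to genes through the RefSeq annotation of Cflo_v7.5, which was used for names and gene order and not for coordinates. The 1 transcript that names no gene was left out. Estimated counts were rounded to whole numbers, filtered with filterByExpr, scaled by TMM factors and tested against length in mm by edgeR 4.0.16 (quasi-likelihood F test) in R 4.3.3. Dividing the size of a slope by the root of its F value gave its SE. Shares are percentages of unscaled estimated reads. Correlations used log2 CPM with a prior count of 2, and average-linkage clustering. The 15 libraries are those with a first-component score above 20, computed on log2 CPM of 10419 genes. Alternatives used DESeq2 1.42.0 and limma 3.58.1. The edgeR fit was also run on simulated counts, drawn for each transcript separately and without the set of 15 libraries. The outcome of that run is not used here. Python 3.11.15, pandas 2.3.3, numpy 2.4.6, scipy 1.17.1 and matplotlib 3.10.9 were used for tables and figures.

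Named transcripts are the 10 of highest mean, the 6 rising and up to 6 falling of smallest p, the 3 most abundant of each block, the 4 of highest and of lowest coefficient of variation, those at ranks 99 to 102, and transcripts of the same or a neighbouring gene. LOC105251615, LOC105251522 and LOC105247863 were named after their values were seen. The 100 transcripts, the alternatives and this rule were chosen with earlier results of these data known. Protein and promoter sequences of the 100 were not analysed here.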

Additional observations from a re-analysis of the deposited data

How the results depend on the processing

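Leaving out each larva in turn gave 38 to 43 rising and 2 to 3 falling transcripts. In these fits 38 of the 44 calls were kept throughout. XM_011269230.3 of LOC105258140, LOC105247863 and LOC105250771 lost theirs without any 1 of 20, 28 and 11 larvae, with adjusted p-values up to 0.0661, 0.0754 and 0.0581 (edgeR). Counts over all transcripts are not given here for the fits that left out 1 larva. Without larvae No. 42 and No. 43, 34 rose and 3 fell. Of the 19824 transcripts tested in that fit, 1355 rose and 1110 fell. With library totals in place of TMM factors 27 rose and 7 fell, without the 15 libraries 6 fell, and in the 15 alone 0 rose and 0 fell. These 15 alone and the single larvae were left out or fitted alone after seeing the data. The share of the 100 had a median of 34.2% as TPM. Without subtracting set means there were 3 blocks, the largest of 60. The cause of these differences was not tested.

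Of 870 slopes of the 58 named transcripts among the 100 under 15 alternatives, 762 kept their direction and their side of the threshold, 56 lost the call, 20 gained one and 32 reversed. None of the reversed slopes had passed the test except that of LOC105251554. With the 15 as a covariate the slopes were 0.225, 0.211 and 0.202 log2 per mm for LOC105258932, LOC105258900 and LOC105258901, 0.390 and 0.183 for LOC105251615 and LOC105251522, and -0.060 for LOC105259326. In the 15 alone they were 1.699, 1.696, 1.700, 2.474 and 1.594 for the same transcripts in that order, -0.040 for LOC105259451, -0.031 for LOC105259326, -0.075 for LOC105251554 and for XM_011268378.3 of LOC105257626, -0.025 for LOC105252785, 0.021 for LOC105251205, -0.002 and -0.074 for XM_011254710.3 and XM_011254709.3 of LOC105249331, and 0.056 and 0.252 for XM_011259040.3 and XM_011259041.3 of LOC105251923. With library totals they were -0.007 for LOC105259451, -0.022 for LOC105256877, -0.077 for LOC105259326 and -0.076 for LOC105252785. Without the 15 they were -0.066 for LOC105259326, -0.013 for LOC105250202, 0.004 for LOC105254686 and 0.073 for LOC105251615. LOC105252785 had -0.006 with upper-quartile factors, -0.037 without No. 42 and No. 43 and -0.007 without the 2 longest and 2 shortest larvae.

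No paired analysis was possible because the larvae form 1 group. Counting error is small at these levels, except for low values such as the 10 reads of LOC105248920 in No. 23, so the spread between larvae and the 15 libraries limit what can be detected.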
